A study of Paralichthys olivaceus with 6 samples.

Results

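Glycolysis splits glucose into pyruvate in the cytosol, pyruvate dehydrogenase turns pyruvate into acetyl-CoA inside mitochondria, and the citrate cycle oxidises that acetyl group and passes electrons to the respiratory chain. Brain tissue draws most of its energy from glucose, and many of these enzymes exist as several isozymes whose use differs between tissues. In teleost fish, genome duplication has added further copies of many of them. The genes described here are those of the flatfish Paralichthys olivaceus (olive flounder) whose identifier begins with the name of an enzyme of these routes. That rule selected 36 of 24395 identifiers, of which 32 belong to the enzymes and their direct regulators and 4 match by name alone.

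The data are RNA-seq read counts from 6 hindbrain libraries of a study that compared fish selected as bold with fish selected as shy and whose title also names oxygen metabolism. The fish weighed 101.06 g on average and were kept at 18 °C; no strain, age or treatment other than the behavioural selection is given. Titles and source names put 3 libraries in the bold group and 3 in the shy group, while the personality characteristic of all 6 libraries gives the opposite word. The groups are therefore called titled bold and titled shy, and if the characteristic holds the right word, every direction below is inverted. Whether a library holds RNA of 1 fish or of a pool is left unsaid by the protocol, which mentions 6 individuals, so that p-values measure only the spread between libraries, which may be partly technical.

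Library totals lay between 18081694 and 22805563 counts. Levels are in CPM, counts scaled by library total with TMM correction, on which 3 counts correspond to between 0.132 and 0.166 CPM before that correction; they are not divided by gene length, so where copies of a step are set side by side the comparison is of reads and not of transcripts. Neuronal markers summed to between 6643 and 7191 CPM in every library but titled bold 2, where they reached 9469 CPM. Most of that sum came from snap25 (5700.1 CPM) and stmn2 (1991 CPM). These and stmn2a and gad2 were highest in titled bold 2, while elavl3, slc17a6b and gad1 were lowest there. Titled bold 2 also had the highest oligodendrocyte marker sum, 4152 CPM against between 2182 and 2621 CPM in the other libraries. Most of it came from mbpa (2393 CPM) and plp1b (1122 CPM). These and mag, sox10, olig1 and olig2 were highest in titled bold 2, while cnp, cldnk and mpz were lowest there. Radial glia and astrocyte markers summed to between 5662 and 6973 CPM in titled bold and between 5693 and 7619.7 CPM in titled shy libraries, and erythrocyte markers to between 17.0 and 22.1 CPM and between 16.1 and 26.6 CPM. In such bulk libraries more cells of a type and more RNA per cell cannot be told apart. Of 13 skeletal muscle markers 11 averaged under 1 CPM, and the list summed to between 6.27 and 6.93 CPM in titled bold and between 3.83 and 8.93 CPM in titled shy libraries. Among the genes checked for hindbrain position, mafba stood at 21.1 ± 2.92 CPM and gata3 at 26.2 ± 4.46 CPM (SD, n = 6). The Hox genes of that list were at or near 0, with hoxa2 highest at 0.336 ± 0.0659 CPM and no read for hoxb2, hoxb4 and hoxc4.

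The identifiers that carry a plain enzyme name do not cover every step. No member stands for phosphofructokinase, phosphoglycerate mutase, pyruvate kinase or L-lactate dehydrogenase. A further 29 identifiers with a LOC number belong to the same enzymes by their RefSeq symbol, and they fill these steps. They are no members, but they are used below wherever the copies of a step are compared. Reads that close copies share could have been split between them, since the counting mode is not given in the sources used here.

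In the following 3 steps a plainly named identifier held few of the reads and LOC identifiers held most. The member gpi (glucose phosphate isomerase, the second reaction of glycolysis) held between 1.90% and 2.46% of its step's reads, and the locus named gpia held the rest. For the first enzyme of the 2-oxoglutarate dehydrogenase complex, the member ogdh held between 0.149% and 0.637% of the reads of ogdh, ogdhl, ogdha and dlst together, and the locus named ogdha between 29.7% and 45.3%. Its relative ogdhl, also plainly named, held between 15.2% and 28.8%. The member gapdh held between 0.255% and 2.35% of the reads of glyceraldehyde phosphate dehydrogenase, and the locus named gapdhs, after the mammalian sperm isozyme, held the rest. A reading of gapdh in these tables is thus a reading of a copy with few reads.

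Other steps were led by 1 copy in every library. The member aldoc (aldolase C, the brain form of aldolase in mammals) held between 97.7% and 98.8% of aldolase reads. The member eno1 (enolase) held between 92.3% and 94.7%, and mdh2 (the mitochondrial malate dehydrogenase) between 87.8% and 89.6%. Among the loci, pfkpa (the platelet-type phosphofructokinase) held between 91.8% and 96.0% of phosphofructokinase reads. The locus pkma took nearly all pyruvate kinase reads, its copy pkmb having at most 4 reads in any library. Hexokinase was shared between hk1, the isozyme typical of brain, at between 75.9% and 85.2%, and hk2.

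L-lactate dehydrogenase, which interconverts pyruvate and lactate, was split between its copies. The locus ldha (the subunit typical of muscle in mammals) held 50.0%, 36.7% and 44.4% of the reads in titled bold 1 to 3 and 46.8%, 51.8% and 41.0% in titled shy 1 to 3. The locus ldhba (a copy of the subunit typical of heart) held 47.7%, 61.2% and 53.1%, and 50.6%, 46.0% and 56.5%. The groups overlapped for both loci, and the share of ldha was lowest in titled bold 2. The third locus, ldhbb, held between 2.08% and 2.57%.

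**Figure D1:**
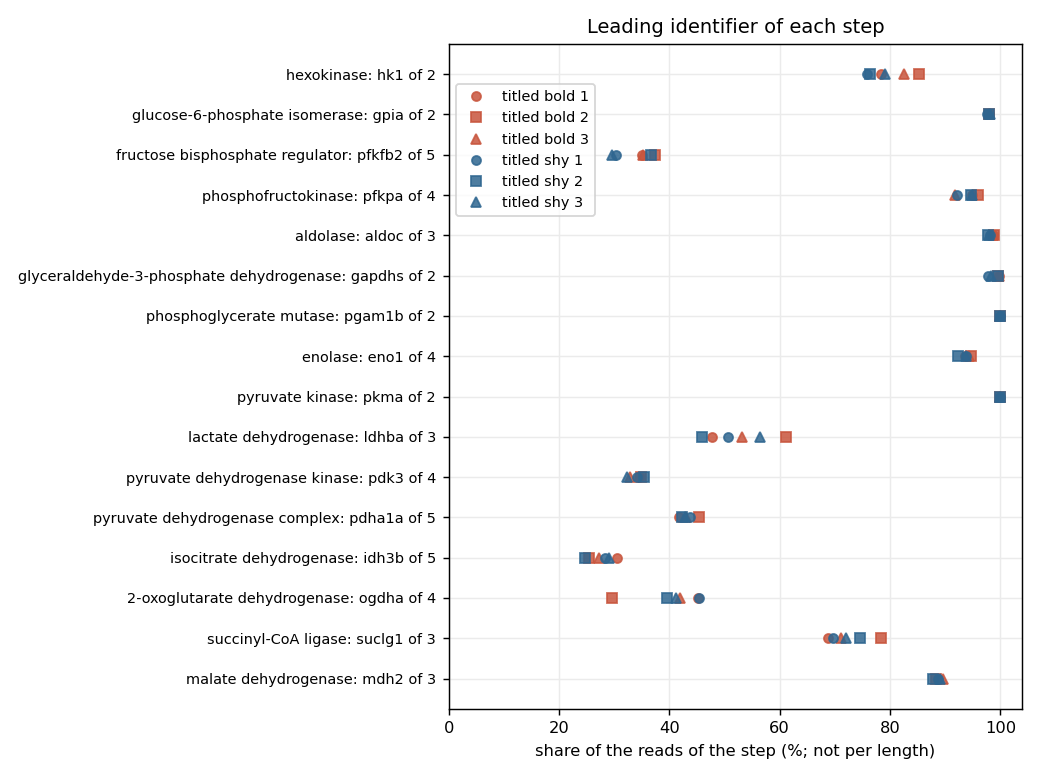
Share of the reads of each step shown that its leading identifier held (x axis, percent, not corrected for length) in each of the 6 libraries; the number after each name counts the identifiers of the step, members and RefSeq-named loci together. Aldolase, enolase, phosphofructokinase and pyruvate kinase sit above 90%, while lactate dehydrogenase lies between 46.0% and 61.2% for ldhba.

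The glycolytic members differed in how steady they were. The hexokinase gene hk1 had 40.5, 43.9 and 46.2 CPM in titled bold 1 to 3 and 40.6, 42.5 and 46.2 CPM in titled shy 1 to 3. The groups covered the same range, with a log2 fold (titled bold over titled shy) of 0.01 ± 0.11 (SE). The gene pgk1, whose product phosphoglycerate kinase makes the first ATP of glycolysis, had 340.1, 329 and 364 CPM against 342, 356 and 321 CPM. It was the least variable member with at least 10 CPM, with a coefficient of variation of 4.72% over the 6 libraries. The most variable was gapdh, at 91.4%. Over the 29 enzyme members with at least 10 CPM the median coefficient was 11.2%, and over all 11971 tested genes at that level it was 12.3%.

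The aldolase gene aldoc had 2088, 2092 and 2126 CPM in titled bold libraries and 1740, 1765 and 1668 CPM in titled shy libraries. The groups did not overlap, and the libraries within each group lay close together. Its log2 fold was 0.29 ± 0.10, with an unadjusted edgeR p of 0.0162 and an adjusted p of 0.955 over all genes. The fold stayed between 0.26 and 0.31 under every alternative tried, with adjusted p-values between 0.287 and 1.0.

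For eno1 the values were 970.1, 1197 and 1171 CPM against 909, 918 and 932 CPM. All titled bold libraries were above all titled shy ones, though titled bold 1 only narrowly. The log2 fold was 0.27 ± 0.11 (edgeR adjusted p = 0.955). Triosephosphate isomerase, encoded by tpi1, had 446, 569 and 501 CPM against 417, 467 and 442 CPM, with overlapping groups and a log2 fold of 0.19 ± 0.12. With titled bold 2 left out the fold of tpi1 was 0.10, and with titled bold 1 left out it was 0.30. Levels were far lower for gpi, at 1.58, 0.929 and 1.4 CPM against 1.63, 1.41 and 1.42 CPM. The members gpi and eno4 averaged 1.39 ± 0.248 and 1.09 ± 0.340 CPM, and their groups overlapped.

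The locus labelled gapdh went the other way. It had 3.97, 7.67 and 5.13 CPM (83, 132 and 103 reads) in titled bold libraries and 34.2, 7.07 and 25.9 CPM (777, 160 and 548 reads) in titled shy libraries. Titled shy 1 and 3 were high, while titled shy 2 lay among the titled bold libraries, so the groups overlapped. The log2 fold was -2.01 ± 0.53, with an unadjusted p of 0.00487 and an adjusted p of 0.955 in edgeR, while DESeq2 called it with an adjusted p of 0.0429. Without titled shy 1 the log2 fold was -1.55 and without titled shy 2 it was -2.43. Over all alternatives the adjusted p lay between 0.0429 and 1.0. The locus gapdhs, which held most reads of the step, had 1552, 2000.3 and 1880.3 CPM against 1425, 1570.2 and 1501 CPM, a log2 fold of 0.27 ± 0.12 (edgeR adjusted p = 0.955). The rows gapdh and gapdhs therefore had estimates of opposite sign. As a share of the reads of both, gapdh held 0.255% to 0.382% in titled bold and 0.448% to 2.35% in titled shy libraries, and on that scale the groups did not overlap. The summed skeletal muscle markers, of which 11 of 13 averaged under 1 CPM, stood at 3.83, 8.93 and 3.88 CPM in titled shy 1 to 3, and their part in the gapdh values was not tested.

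**Figure D2:**
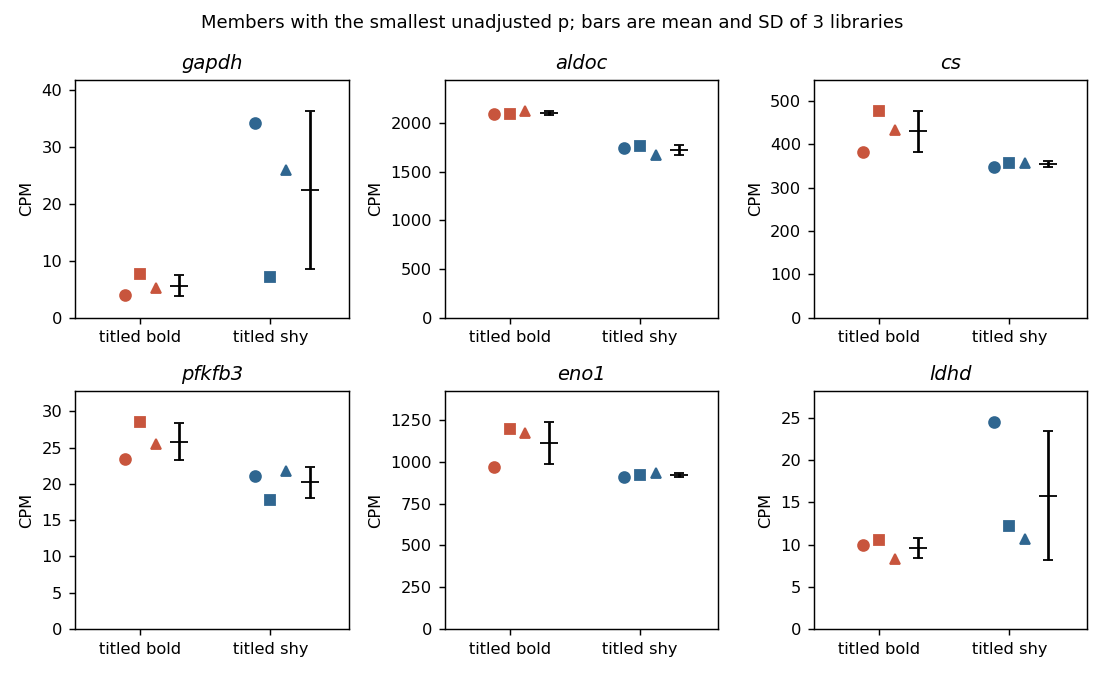
CPM (y axis, from 0) of the 6 members with the smallest unadjusted p in each library, with the mean and SD of 3 libraries beside each group. The titled bold libraries of aldoc lie between 2088 and 2126 CPM and the titled shy ones between 1668 and 1765 CPM, whereas gapdh is spread from 7.07 to 34.2 CPM within the titled shy group.

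The enzymes PFKFB make and break the sugar bisphosphate that activates phosphofructokinase, and so set the pace of glycolysis. The member pfkfb3, an isozyme with high kinase activity in mammals, had 23.4, 28.5 and 25.5 CPM against 21.1, 17.8 and 21.7 CPM. Its groups did not overlap, with a log2 fold of 0.35 ± 0.14 (edgeR adjusted p = 0.955). The member pfkfb2 had 90.3, 105 and 90.9 CPM against 69.5, 92.4 and 71.1 CPM. Titled shy 2 lay within the titled bold range, and the log2 fold was 0.30 ± 0.14. Of the reads of the 5 PFKFB copies, pfkfb3 held 9.08% and pfkfb2 34.0% on average. The loci pfkfb4b, pfkfb4a and pfkfb1 held 33.5%, 21.4% and 2.05%. In CPM the groups overlapped for each of these loci, with log2 folds of 0.02 ± 0.10, -0.0025 ± 0.10 and 0.10 ± 0.42. The locus of phosphofructokinase itself, pfkpa, had 369, 360.2 and 384 CPM against 329.6, 355 and 333 CPM, with groups that did not overlap and a log2 fold of 0.13 ± 0.09.

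D-lactate dehydrogenase, encoded by ldhd, oxidises the mirror form of lactate in mitochondria. It had 9.99, 10.5 and 8.23 CPM in titled bold libraries and 24.5, 12.2 and 10.6 CPM in titled shy libraries. The groups did not overlap, but the gap was narrow and titled shy 1 stood well above the rest. The log2 fold was -0.72 ± 0.31 (edgeR adjusted p = 0.955), and without titled shy 1 it was -0.24.

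At the entry to the citrate cycle, the pyruvate dehydrogenase complex is built from an E1 part (encoded by pdha1 and pdhb), an E2 part (dlat), a binding protein (pdhx) and an E3 part (dld). The E1 beta gene pdhb had 49.6, 34.4 and 44.6 CPM against 46.5, 51.2 and 57.4 CPM. The gene for the binding protein, pdhx, had 38.9, 47.7 and 50.3 CPM against 38.4, 42.4 and 42.6 CPM. Both overlapped between groups, with log2 folds of -0.27 ± 0.15 and 0.15 ± 0.13. Without titled bold 2 the fold of pdhb was -0.13, and without 1 library the fold of pdhx lay between 0.07 (titled bold 3 left out) and 0.27 (titled bold 1 left out). For dlat the values were 49.8, 41.4 and 50.2 CPM against 44.9, 44.9 and 57.9 CPM, and for dld, which the 2-oxoglutarate complex also uses, they were 184, 168 and 196 CPM against 177, 184 and 195 CPM. Their folds were within 1 SE of 0.

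Pyruvate dehydrogenase kinases switch the complex off by phosphorylating E1. The member pdk1, a target of hypoxia-inducible factors in mammals, had 53.0, 65.5 and 64.0 CPM against 57.8, 48.5 and 59.8 CPM. The member pdk3 had 94.5, 107 and 93.1 CPM against 96.9, 101 and 84.2 CPM. For pdk4, which fasting induces in mammalian muscle, the values were 61.0, 79.3 and 55.2 CPM against 65.3, 74.1 and 55.7 CPM. All these kinases overlapped between the groups, with log2 folds of 0.14 ± 0.13, 0.06 ± 0.11 and 0.002 ± 0.16. Leaving out titled bold 1 gave a fold of 0.25 for pdk1, and leaving out titled shy 2 gave 0.05. The reads of the step were spread over pdk3, pdk4, pdk1 and the locus pdk2a, pdk3 holding between 32.3% and 35.4% of them.

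Citrate synthase, encoded by cs, joins acetyl-CoA to oxaloacetate and is the usual marker enzyme of mitochondrial content. It had 382, 476 and 433 CPM in titled bold libraries and 347, 358 and 358 CPM in titled shy libraries. The groups did not overlap, and the spread was wider among titled bold libraries. The log2 fold was 0.28 ± 0.11 (edgeR adjusted p = 0.955), and without titled bold 2 it was 0.20.

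The gene aco1, whose cytosolic product interconverts citrate and isocitrate and also binds RNA in response to iron, had 59.5, 52.3 and 52.8 CPM against 56.2, 54.2 and 56.3 CPM. The groups overlapped, with a log2 fold of -0.02 ± 0.10.

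The NAD-dependent isocitrate dehydrogenase of the cycle is assembled from products of idh3a, idh3b and idh3g. The catalytic subunit gene idh3a had 146, 203 and 182 CPM against 142, 160.3 and 173 CPM. For idh3b the values were 228, 236 and 229 CPM against 208, 188 and 239.8 CPM, and for idh3g 129, 167 and 146 CPM against 121, 144 and 145 CPM. Titled bold 2 was the highest library for idh3a and idh3g, and the groups overlapped for each subunit. The NADP-dependent mitochondrial enzyme idh2 had 158, 204 and 167 CPM against 172, 162 and 159 CPM. The 4 log2 folds lay between 0.10 and 0.16 and moved when single libraries were left out. Without titled bold 2 they were 0.05 for idh3a, 0.0084 for idh3g and -0.01 for idh2, and without titled bold 1 they were 0.30, 0.22 and 0.20. For idh3b the fold was 0.04 without titled shy 2 and 0.24 without titled shy 3.

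Later in the cycle, ogdhl, a brain-enriched relative of 2-oxoglutarate dehydrogenase in mammals, had 29.3, 44.7 and 26.0 CPM against 26.3, 33.3 and 36.1 CPM. Succinyl-CoA ligase shares the alpha subunit encoded by suclg1 between an ATP-forming and a GTP-forming enzyme. The member suclg1 had 137, 173 and 166 CPM against 132, 157 and 160.3 CPM, and suclg2, the GTP-specific beta subunit, 21.7, 24.3 and 20.9 CPM against 21.0, 22.1 and 23.9 CPM. Groups overlapped for all of these. The log2 fold of suclg1, 0.09 ± 0.13, came to 0.01 when titled shy 1 was left out and reached 0.20 when titled bold 1 was. Fumarase, encoded by fh, had 68.9, 66.3 and 74.5 CPM against 65.7, 73.8 and 74.7 CPM. For mdh2, which closes the cycle, the values were 313, 409.7 and 374 CPM against 304, 325 and 329 CPM. The log2 folds of fh and mdh2 were -0.03 ± 0.10 and 0.20 ± 0.12, and their groups overlapped. Leaving out titled bold 2 gave a fold of 0.11 for mdh2, and leaving out titled bold 1 gave 0.32. The other malate dehydrogenase member, mdh1b, averaged 24.2 ± 5.13 CPM and was highest in titled bold 2 at 34.6 CPM.

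**Figure D3:**
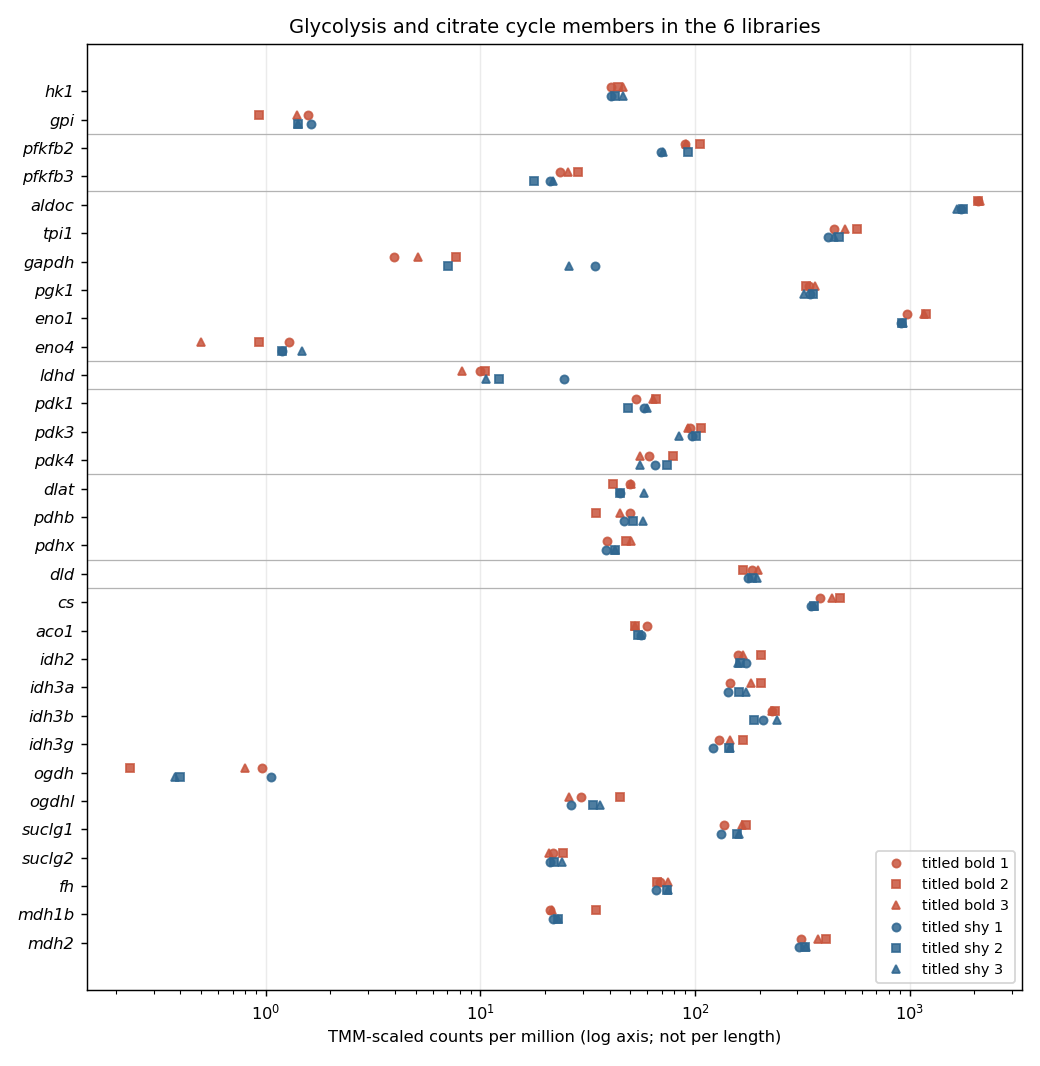
CPM (x axis, log scale, not per length) of 31 of the 32 members that are enzymes or their regulators in each library, in pathway order with lines between branches. Most members span a narrow range over the 6 libraries. The widest on this axis are gapdh (3.97 to 34.2 CPM), ogdh (0.232 to 1.06 CPM), ldhd (8.23 to 24.5 CPM) and eno4 (0.499 to 1.47 CPM).

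Over all 32 enzyme members, which all passed the filter on low counts, edgeR's quasi-likelihood test called 0 at an adjusted p under 0.05, as it called 0 (0.0%) of 19755 genes. At an unadjusted p under 0.05 there were 6 members, or 18.8%, against 3.49% of all genes. The 4 that were higher in titled bold libraries were aldoc, eno1, cs and pfkfb3 (1.74% of all genes in that direction), and the 2 that were lower were gapdh and ldhd (1.75%). limma-voom also called 0 members, with 5 at an unadjusted p under 0.05 (3.65% of all genes). Among the members DESeq2 called gapdh alone, and it called 0.0557% of all genes. Which of the 6 members passed changed with the library left out. Leaving out titled bold 1, 2 or 3 in turn gave 10, 2 and 1 members at that threshold, beside 2393, 563 and 546 of all genes. Leaving out titled shy 1, 2 or 3 gave 2, 4 and 3 members, beside 536, 622 and 540 of all genes. The filter was rerun in each of these fits, so these counts are not shares of 19755 genes. The all-gene count was below the 690 of the main test in every fit but the one without titled bold 1. Of the 6, gapdh was under 0.05 in each of these fits.

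Groups that did not overlap were found in 4 members with titled bold higher, where 4.53% of all tested genes were of that kind, and in 1 with titled shy higher, against 5.0%. Log2 folds were above 0 in 23 members and below 0 in 9, with a median of 0.09, while over all genes 48.3% were above 0 and the median was -0.01. Without titled bold 2 the members' median was 0.02, and without titled bold 1 it was 0.13. Of the 8 glycolysis enzymes 5 were above 0 (median 0.02), of the 14 citrate cycle enzymes 12 (median 0.11). Of the 4 genes of pyruvate dehydrogenase with dld, 1 was above 0 (median -0.04). Of the 25 tested LOC identifiers of these enzymes 18 were above 0, with a median of 0.05 and 0 at an unadjusted p under 0.05. Of 9 tested neuronal markers 6 were above 0 (median 0.06). The neuronal genes stmn2 and stmn2a, at 0.29 ± 0.14 and 0.32 ± 0.15, had groups that did not overlap, titled bold being higher. Below 0 were elavl3, gad1 and syt1, at -0.14 ± 0.12, -0.23 ± 0.23 and -0.17 ± 0.26, with overlapping groups. Of 10 tested radial glia and astrocyte markers 2 were above 0 (median -0.17), and of 10 oligodendrocyte markers 5 (median 0.01). The part of these markers in the members' differences was not tested.

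**Figure D4:**
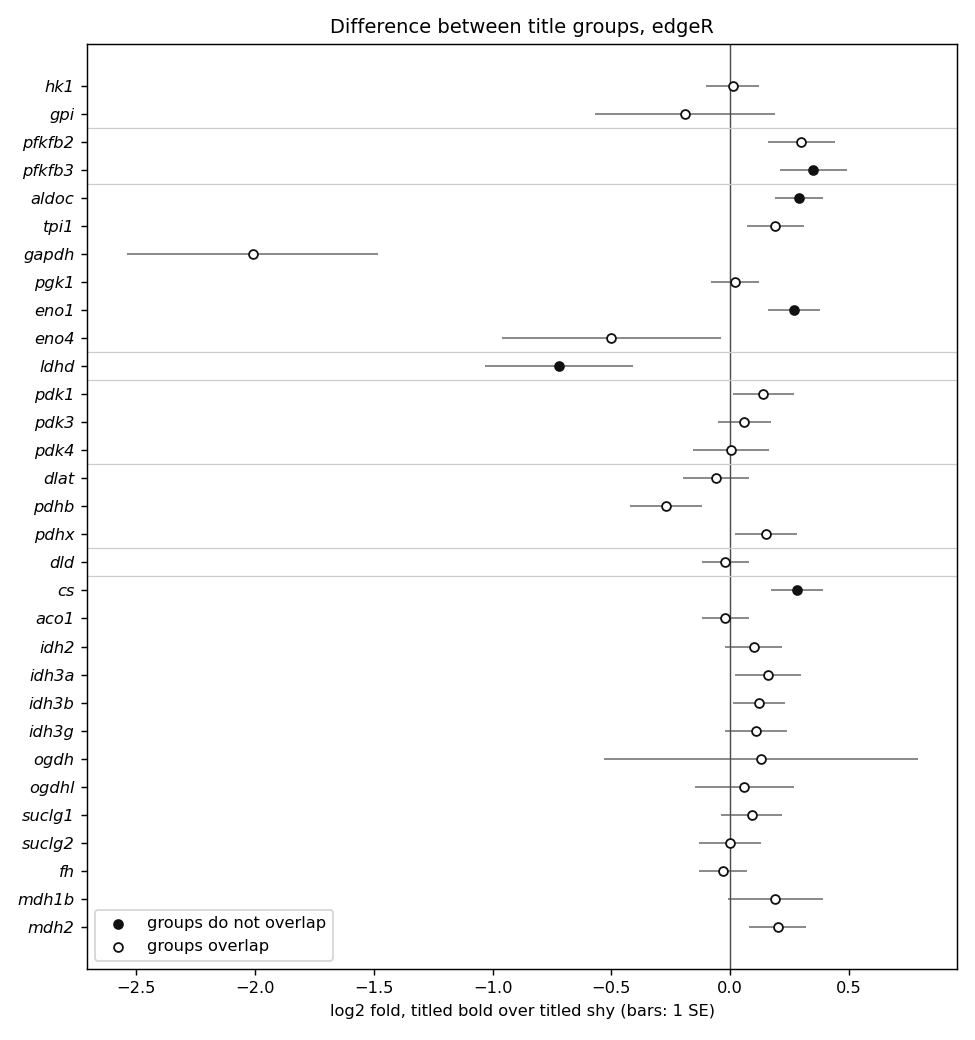
Log2 fold of titled bold over titled shy libraries (x axis, edgeR, bars 1 SE) for 31 of the 32 enzyme members in pathway order; filled points mark the 5 members whose groups did not overlap. Most points lie between -0.3 and 0.35, and gapdh lies at -2.01.

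The members took a larger part of the reads in titled bold libraries, at 0.673%, 0.693% and 0.696% of all counts, than in titled shy libraries, at 0.623%, 0.613% and 0.615%. The groups did not overlap. Of the members' reads aldoc held between 27.1% and 32.0% and eno1 between 14.9% and 16.5%. Without both, the remaining 30 members held between 0.357% and 0.380% in titled bold and between 0.346% and 0.355% in titled shy libraries. The nearest libraries of the groups thus differed by little. Shares in this paragraph are of raw counts without the TMM correction, whose factors lay between 0.953 and 1.04. So narrow a gap need not hold on the CPM scale. For the 14 citrate cycle members the groups overlapped, at 0.204% to 0.224% against 0.193% to 0.205%. They did not for the 8 glycolysis enzymes, aldoc and eno1 among them, at 0.402% to 0.414% against 0.344% to 0.362%. With the LOC identifiers of these enzymes added, the sums were 1.16%, 1.21% and 1.22% against 1.09%, 1.07% and 1.09%, again without overlap.

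Titled bold 2 stood out among the libraries. It was the highest library for 16 of the 32 members (50.0%), against 25.4% of all tested genes, and for 9 of the 14 citrate cycle members, but for 2 of the 8 glycolysis enzymes (25.0%). It was the lowest for 6 members (18.8%), against 29.3% of all genes. Among the 25 tested LOC identifiers of these enzymes it was highest for 5 (20.0%) and lowest for 8 (32.0%). The members of the pyruvate dehydrogenase group went against this, 3 of 4 being lowest there. Neuronal and oligodendrocyte marker sums were highest in the same library, though some markers of both lists were lowest there, as given above. The part of these markers in the values was not tested.

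Some partner subunits had their most extreme read ratio in titled bold 2. The pairs were chosen after their values were seen. The ratio of pdhb to pdhx reads was 0.722 in titled bold 2 and between 0.888 and 1.35 in the other libraries. For sucla2, the locus of the ATP-specific beta subunit, to its partner suclg1 it was 0.135 against between 0.201 and 0.298. The ratio of ogdha to dlst, both of the 2-oxoglutarate complex, was 0.718 against between 0.977 and 1.20. Each of these ratios was lowest in titled bold 2. Ratios of pdhb to pdha1a (0.199) and dlat to pdhx (0.868) were also lowest there, while suclg2 to suclg1 was lowest in titled bold 3 (0.125). The idh3a to idh3g ratio kept between 1.11 and 1.24 in all 6 libraries, the narrowest range among the 11 ratios computed. The idh3a to idh3b ratio was highest in titled bold 2, at 0.861 against between 0.642 and 0.851 elsewhere. That of idh3g to idh3b was highest in titled shy 2 (0.764).

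Isozymes of 1 step also had extreme ratios in that library. Reads of ogdhl were 0.967 times those of ogdha in titled bold 2 and between 0.350 and 0.502 times in the others. Reads of ldha were 0.600 times those of ldhba there and between 0.727 and 1.12 times elsewhere. None of the 11 ratios separated the title groups.

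**Figure D5:**
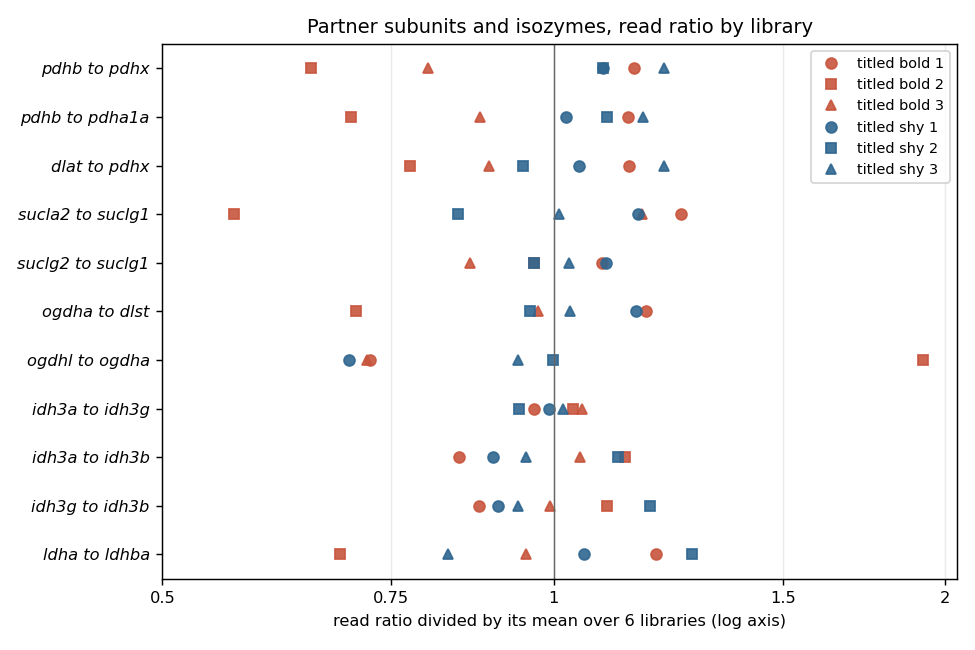
Ratio of the reads of partner subunits or isozymes in each library, divided by its mean over the 6 libraries (x axis, log scale). Titled bold 2 lies at the low end for pdhb to pdhx, sucla2 to suclg1, ogdha to dlst and ldha to ldhba and at the high end for ogdhl to ogdha, while idh3a to idh3g stays near 1.

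Of the genes around these routes, edgeR called 0 in each list. An unadjusted edgeR p under 0.05 was reached by slc2a8, 1 of 10 transport genes, and tkt, 1 of 9 pentose phosphate genes. The other lists, of 14, 14, 8 and 8 tested genes, had 0. Over all genes the share at that threshold was 3.49%. Among 10 tested transport genes, 6 were above 0 and 4 below. The glucose transporter gene slc2a8 had 16.5 ± 1.26 against 21.3 ± 0.914 CPM (SD, n = 3), a log2 fold of -0.36 ± 0.13, and the monocarboxylate carrier gene slc16a7 35.1 ± 3.49 against 28.9 ± 1.82 CPM, a fold of 0.28 ± 0.12. The monocarboxylate carrier chaperone gene bsg had 516 ± 34.5 against 500.1 ± 40.2 CPM. Of 14 genes of glycogen and gluconeogenesis 6 were above 0, with g6pc3 (glucose phosphatase) at 107 ± 42.9 against 73.5 ± 6.12 CPM and highest in titled bold 2. In that list pc (pyruvate carboxylase) had 161 ± 10.1 against 179 ± 14.5 CPM and pygm (glycogen phosphorylase) 446 ± 26.3 against 421 ± 17.6 CPM.

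In the pentose phosphate pathway 3 of 9 genes were above 0. The transketolase identifier tkt had 0.792 ± 0.0248 against 1.46 ± 0.199 CPM, while the locus named tktb had 158 ± 12.2 against 158 ± 6.39 CPM. The plainly named identifier was thus again one with few reads, as was the locus named tkta, at 0.444 ± 0.446 CPM over all libraries. The isomerase gene rpia had 20.3 ± 3.39 against 15.9 ± 1.89 CPM. Of 14 shuttle and citrate export genes 8 were above 0, with the dicarboxylate carrier gene slc25a10 at 55.5 ± 4.35 against 47.6 ± 3.87 CPM, the malic enzyme gene me2 at 43.0 ± 3.19 against 36.8 ± 2.62 CPM and the aminotransferase gene got2 at 377 ± 47.0 against 336 ± 30.3 CPM.

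Succinate dehydrogenase is the step of the cycle that the name rule leaves out. Of its 8 subunit and assembly genes 7 were above 0, with a median log2 fold of 0.11. The flavoprotein gene sdha had 238 ± 18.6 against 228 ± 16.3 CPM, and the assembly factor gene sdhaf1 11.7 ± 0.417 against 9.72 ± 1.01 CPM. The plainly named sdhb had 130.1 ± 18.5 against 109 ± 23.7 CPM. A LOC identifier also named sdhb had 77.1 ± 14.3 against 70.5 ± 7.48 CPM, and the groups overlapped for both sdhb entries. Of 8 further glycolysis and pyruvate dehydrogenase genes outside the rule 5 were above 0, with the bisphosphoglycerate mutase gene bpgm at 49.4 ± 3.41 against 43.8 ± 0.874 CPM and the phosphatase gene pdp1 at 64.4 ± 7.13 against 62.7 ± 4.09 CPM. Glucokinase, encoded by gck, had 86 reads in titled bold 1 and between 2 and 14 in the other libraries, with a log2 fold of 2.18 ± 1.04.

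The 4 identifiers that match by name alone encode other proteins. They are the kinase gene pkmyt1, which restrains entry into mitosis, at 19.7 ± 2.81 CPM, the mitochondrial phosphatase gene pgam5 at 58.1 ± 10.4 CPM, suco at 111 ± 5.66 CPM and the succinate receptor gene sucnr1, which had 0.124 ± 0.153 CPM and was not tested. The other 3 overlapped between groups, with log2 folds between -0.05 and 0.16.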

How the data were processed

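Per the labels' protocols, stranded mRNA libraries were read from both ends over 100 bases. The authors deposited raw read counts per gene, 1 table per library. HTSeq 0.11.1, TopHat2 2.0.11 and Trimmomatic 0.30 appear in the submitters' processing notes. Not given in the sources used here were the genome build, the annotation and the strand and counting settings. LOC identifiers took symbols from the RefSeq annotation of assembly ASM2471397v2 (5666 of 14730), used for names only. No sequence or transcript length was used.

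Genes passing edgeR's filterByExpr (19755) were TMM-scaled and tested two-sided across all 6 libraries with edgeR's quasi-likelihood test, with Benjamini-Hochberg adjustment over all genes. SEs of log2 folds are the fold divided by the root of the test's F. DESeq2, limma-voom, 2 other scalings, no filter, a replicate block and leaving out each library were alternatives. The planned length-corrected shares were not run. No library was left out, and pairs of libraries within a group differed beyond sampling noise (smallest chi-square 17.8 per gene).

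One member is not reported here by itself but is part of the counts and sums over members. Members and lists were chosen with earlier results of these data known. Each step's member with most reads, further copies with at least 10% of its reads, the 6 smallest p-values and the extremes of variation are given by library; genes around the routes by the 2 smallest p-values and the highest mean in each list. In counts simulated for this comparison (19755 genes), edgeR recovered 65.3% of 2-fold and 94.7% of 4-fold changes given to genes with a mean above 40 counts. The simulation gave each gene the spread typical of its level and not its own spread. It also changed many genes at once, which eases the adjustment over all genes. Recovery in the real counts can therefore be lower. The software was edgeR 4.0.16, DESeq2 1.42.0 and limma 3.58.1 in R 4.3.3, with matplotlib 3.10.9 in Python 3.11.15.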

Additional observations from a re-analysis of the deposited data

How the results depend on the processing

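Across all genes DESeq2 called 11 where the other settings called 0, and among the members it called 1, gapdh. The count of all genes at an unadjusted p under 0.05, 690 in the main test, was 1160 with the replicate block and between 536 and 2393 without 1 library, highest without titled bold 1. Members at that threshold numbered between 1 and 10 without 1 library. The median log2 fold of the members stayed above 0 throughout, between 0.02 and 0.13. With the replicate block 5 members passed an unadjusted p of 0.05 and 0 were called: gapdh and pfkfb3 no longer passed, and pfkfb2 did. Deviations from the group means correlated at 0.316, 0.136 and 0.0798 between same-numbered libraries. Such deviations cancel over the 3 libraries of a group, so some pairs must correlate positively whatever the numbering means. Each titled bold library correlated best with the titled shy library of its own number. Of the titled shy libraries only titled shy 3 did not, with 0.0843 for titled bold 2. Whether a number stands for a shared batch or a pair is not given by the labels and was not tested. Of 29 members' folds, 11 changed sign somewhere, 31 of 348 values in all. With library totals only the folds were -0.02 for hk1, -0.01 for pgk1, -0.03 for pdk4 and -0.03 for suclg2. With the replicate block pdk4 was at -0.0046 and suclg2 at -0.00022, and with limma-voom they were at -0.01 and -0.0031. Without 1 library the folds ranged from -0.03 to 0.08 for hk1, -0.02 to 0.05 for pgk1, -0.0033 to 0.11 for pdk3, -0.16 to 0.11 for pdk4, -0.12 to 0.09 for dlat, -0.07 to 0.04 for dld, -0.06 to 0.02 for aco1, -0.01 to 0.20 for idh2, -0.20 to 0.22 for ogdhl, -0.06 to 0.07 for suclg2 and from -0.08 to 0.02 for fh. The cause was not tested. All 102 read shares stayed within 1 SD. That outcome tests nothing, since scaling leaves a read share unchanged. A mean over 6 libraries also cannot move by 1 SD when 1 of them is left out. With 3 libraries per group, changes of 2-fold and less can be missed, and so can larger ones in genes with a wide spread between libraries. The limit of 3 counts covers counting error only.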

Other observations

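Single libraries carried some copies with few reads, given here as values chosen after they were seen. The aldolase locus named aldoca had 109 reads in titled shy 3 and between 4 and 14 in the other libraries. The phosphoglycerate mutase locus pgam2, the muscle form in mammals, had 0 reads in each titled bold library and 5, 2 and 2 reads in titled shy libraries. These counts lay at or near the limit of 3 counts, and pgam2 did not pass the filter for testing.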
